A study of Mus musculus with 12 samples.

Results

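The nuclear genes for the subunits of mitochondrial complexes II to V were followed in mouse liver. They were taken from the deposited count table by gene symbol: the succinate dehydrogenase genes Sdha to Sdhd for complex II, the genes beginning with Uqcr together with Cyc1 for complex III, Cox4 to Cox8 for complex IV and Atp5 for complex V. This gave 42 of the 11968 genes in the table, of which 4 belong to complex II, 9 to complex III, 12 to complex IV and 17 to complex V. All 42 were above the deposited filter of 1 CPM (counts scaled to the library total) in at least 6 livers, and 13 further genes that match these names were below it. Beyond this filter on low values, the rule uses the gene symbols alone.

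Livers came from C57BL/6J mice, an inbred strain, which were between 8 and 10 weeks old when the diets began. Female and male mice were fed chow or chow with 0.1 g/kg simvastatin for 4 weeks. Simvastatin blocks HMG-CoA reductase, an early enzyme of cholesterol synthesis. The labels relate the dose to body weight and the study's methods to food weight. With 2 sexes on 2 diets there were 4 groups of 3 livers, and each of the 12 livers was from a different mouse. The labels name no engineered allele in any group. A liver is called here by its sex, diet and replicate number, as in female statin 2. The labels give the diet formula D11060903i for both diets and the methods give another formula for the chow, so the chow formula is uncertain. The study asks how statin treatment differs between the sexes, and the comparisons here were statin against chow within females and within males, the difference between these 2 effects, and females against males on chow.

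Complex II oxidises succinate and passes the electrons to ubiquinone. Complex III moves them on to cytochrome c, complex IV passes them to oxygen, and complex V uses the resulting proton gradient to make ATP. Complex II is built only of nuclear subunits, whereas complexes III, IV and V also hold subunits encoded by mitochondrial DNA, so that their assembly draws on both genomes. Hepatocytes are rich in mitochondria, and many nuclear subunit genes share promoter elements for NRF1 and for ETS-family factors such as GABPA.

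The DNA before the start site is shown for the gene of each complex that followed the others most steeply from liver to liver, as described below. Only genes with at least 60 bases outside annotated exons at hand were used. Uqcrc1, whose groups did not overlap in females, and Cox7a1, which differed between the sexes on chow, are shown as well. Sequences are from RefSeq (GRCm38.p6), written 5′ to 3′ on the strand of the gene. Capitals mark CCGGAAG or its reverse complement, the core of ETS-family sites.

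Sdhd (chr9:50603850-50603909, minus strand): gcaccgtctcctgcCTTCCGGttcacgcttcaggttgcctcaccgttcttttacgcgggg
Uqcrh (chr4:116075072-116075191, minus strand): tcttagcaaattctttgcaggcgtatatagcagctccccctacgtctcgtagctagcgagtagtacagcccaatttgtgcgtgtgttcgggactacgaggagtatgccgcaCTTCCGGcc
Cox7b (chrX:106015580-106015699, plus strand): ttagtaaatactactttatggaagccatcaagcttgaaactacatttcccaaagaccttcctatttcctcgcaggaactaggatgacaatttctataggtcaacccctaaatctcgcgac
Atp5e (chr2:174464106-174464225, minus strand): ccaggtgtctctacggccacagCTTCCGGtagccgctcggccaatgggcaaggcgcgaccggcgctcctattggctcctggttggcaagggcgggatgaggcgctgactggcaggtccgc
Uqcrc1 (chr9:108936513-108936632, plus strand): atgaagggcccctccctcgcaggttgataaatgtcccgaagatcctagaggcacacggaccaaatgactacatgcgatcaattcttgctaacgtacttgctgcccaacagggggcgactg
Cox7a1 (chr7:30184024-30184143, plus strand): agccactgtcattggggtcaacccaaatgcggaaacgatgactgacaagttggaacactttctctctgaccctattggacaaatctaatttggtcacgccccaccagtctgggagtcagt

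The ETS letters lie in the windows of Sdhd, Uqcrh and Atp5e and are absent from those of Cox7b, Uqcrc1 and Cox7a1. Cox7b and Cox7a1 also followed the other genes, with correlations of 0.99 and 0.88 with their mean across livers. Promoter windows, each running from 250 bases before to 50 bases after a start, were at hand for 31 of the 42 genes. There were none for Sdhc, Cyc1, Uqcrb, Uqcrc2, Uqcrq, Cox4i1, Cox6c, Atp5a1, Atp5f1, Atp5mpl and Atp5s. Both strands were searched. CCGGAAG was found in 12 of the 31 genes (38.7%), compared with 9.93% of the 27025 genes with a window. It was in 12 of the 27 with a correlation over 0.8 with the mean of the others across livers, Cox6b1 and Atp5k among them. Atp5o, Uqcr10 and Atp5j2 were among those of the 27 without it. It was in 0 of the 4 below that correlation, Sdha, Atp5d, Uqcrc1 and Atp5b, a description that was not tested. The movement across livers also went with transcript length, as given below, and the part of promoter elements in it was not tested. GCATGCGC, the core of the NRF1 site, was found in 7 of 31 (22.6%; 3.05% of all genes), and AAGATGGC, the core of the YY1 site, in 2 of 31 (6.45%; 3.19% of all genes). The NRF1 letters occur in Sdhb, Uqcrc1, Uqcr11, Cox6a1, Atp5g2, Atp5k and Atp5l. They were in 6 of the 27 genes with a correlation over 0.8 and in 1 of the 4 below it. The YY1 letters were in 2 of the 27 and in 0 of the 4. These are matches of letters only. The shares given for comparison are over all 27025 genes with a window, whether or not they were above the filter in liver. The 31 subunit genes were all above it. Whether their shares differ from those of other genes above the filter was not tested.

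Between 46066381 and 60419223 counts were obtained per liver, and levels are given as CPM scaled with TMM factors, a correction for library composition, of between 0.924 and 1.05. Hepatocyte markers summed to between 76720 and 146800 CPM in a liver, with all 7 above the filter. The 5 muscle markers, Acta1 and Ckm among them, summed to at most 0.0549 CPM, and the 4 fat markers to at most 0.327 CPM. Markers of Kupffer cells summed to between 479 and 842 CPM in statin-treated females and to between 575 and 714 CPM in females on chow. In males the Kupffer cell sums were between 316 and 397 CPM with statin and between 316 and 509 CPM on chow. The neutrophil list (at most 4.18 CPM) had none of its 3 genes above the filter, and the cholangiocyte list (at most 8.84 CPM) had 1 of 4. The lymphocyte list, which also had 1 of 4, summed to between 19.6 and 27.5 CPM in statin-treated females and between 13.7 and 17.8 CPM in females on chow. Endothelial markers summed to between 151 and 262 CPM and stellate cell markers to between 188 and 365 CPM over all livers, and neither sum overlapped between the sexes on chow. The part of these cells in the results below was not tested, and in whole tissue fewer cells of a type and less RNA per cell cannot be told apart.

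Subunit transcripts were abundant. Together the 42 genes held 0.785% to 1.22% of all counts in a liver, and 28 of them had at least 100 CPM in every liver. To compare genes, the mean CPM over the 12 livers was divided by transcript length in kb, the median of the annotated coding transcripts of the gene. On this scale Atp5b, the catalytic beta subunit of ATP synthase, was highest (689.7 CPM per kb), followed by Atp5g3, a gene for the membrane subunit c (604 CPM per kb), the complex III subunit Uqcrq (552 CPM per kb) and Cox4i1, the regulatory subunit 4 of cytochrome oxidase (547 CPM per kb). The order between these is uncertain where transcripts differ in length, since Uqcrq ranges from 183 to 688 CPM per kb between its longest and shortest transcript. The complex II genes lay lower, with 261 CPM per kb for the membrane anchor Sdhd, 195 for the iron-sulfur subunit Sdhb, 161 for the flavoprotein Sdha, which holds the succinate site, and 92.4 for the other anchor, Sdhc. The catalytic subunits of complex III were close to each other, with 166 CPM per kb for the Rieske protein Uqcrfs1 and 147 for cytochrome c1, Cyc1. The core proteins Uqcrc1 and Uqcrc2 had 156 and 154 CPM per kb. Only Atp5l, Cox7a1 and Atp5s had a mean under 30 CPM. They are the genes for subunit g of ATP synthase, the heart and muscle form of subunit 7a of cytochrome oxidase, and the coupling factor B, which is not a core subunit.

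Where a subunit has tissue-specific forms, the liver form dominated. Cox7a2, the liver form of subunit 7a, had 223 CPM per kb compared with 4.75 for Cox7a1. The second forms Cox4i2, Cox6a2, Cox6b2, Cox7b2, Cox8b and Cox8c were all below the filter, none above 0.205 CPM in any liver. Cox7b2 and Cox8c had no count in any of the 12 livers, while 3 counts, the limit that a count of 0 allows for counting error alone, correspond to at most 0.0651 CPM. Cox6a2 and Cox8b, the muscle forms of their subunits, were each at 0 in 6 livers. The other 7 genes below the filter are annotated pseudogenes, the highest being Atp5l2-ps (0.567 CPM). Reads shared with such copies may have been split or dropped in counting, since the handling of multiply mapped reads was not given in the sources used here. Counts of genes whose annotated span overlaps another gene are also uncertain in part, since the strand setting of the counting was not given. On the same strand these are Cox4i1 (with Gm20388), Atp5o (with a second entry of the same symbol) and Cox7c (with Gm22574), Atp5b (with Snord59a and Mir677), Atp5c1 (with Gm23608) and Atp5g2 (with Mir688). On the opposite strand they are Sdha, Uqcrb, Uqcrc2, Uqcrh, Cox4i1, Cox5a, Cox6c, Atp5a1, Atp5d, Atp5f1, Atp5j, Atp5l and Atp5o.

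Subunit c of ATP synthase has the same mature protein from Atp5g1, Atp5g2 and Atp5g3. Atp5g3 took most of the subunit c counts, between 62.5% and 72.3% in a liver. Atp5g1 took 31.7%, 30.4% and 29.8% in females on chow, 27.2%, 28.6% and 26.0% in statin-treated females, 23.2%, 22.0% and 25.1% in males on chow and 24.1%, 24.2% and 25.9% in statin-treated males. The shares in females on chow did not overlap those of males on chow or of statin-treated females. The difference was 7.21 percentage points between the sexes on chow and -3.40 percentage points between statin and chow in females, each with an exact two-sided permutation p of 0.1, the smallest that 3 against 3 livers can give. In males the difference between statin and chow was 1.26 percentage points (exact permutation p = 0.4). Annotated Atp5g1 transcripts run from 596 to 4715 bases, so that its level per kb is not well defined (36.0 to 285 CPM per kb).

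With statin, no subunit gene passed the test in either sex. In females 0 of the 42 genes had an adjusted p-value under 0.05 (edgeR's quasi-likelihood test on all 12 livers, two-sided, Benjamini-Hochberg adjustment over all 11968 genes), compared with 0.1% of all genes. Without adjustment, 0 of 42 were under 0.05 as well, compared with 10.5% of all genes. In males the counts were again 0 of 42 at an adjusted (0% of all genes) and at an unadjusted (1.96% of all genes) p-value under 0.05. DESeq2 gave 0 adjusted calls among the 42 in females (2.26% of all genes) and in males (0.0334% of all genes). Unadjusted, it gave 2 in females, Atp5b and Uqcrc1 (12% of all genes), and 0 in males (2.56% of all genes). The median log2 fold change of the 42 genes was -0.04 in females, compared with 0.01 over all genes, and 0.10 in males, compared with 0.004 over all genes. All 42 intervals included 0 in each sex. The median half-width of the 95% interval was 0.51 on the log2 scale in females and in males. In females 41 of the 42 intervals lay within 1 of 0 on the log2 scale and 11 lay within 0.5, and in males 41 and 12 did, so that smaller changes of most genes were not detectable with 3 livers a group.

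**Figure D1:**
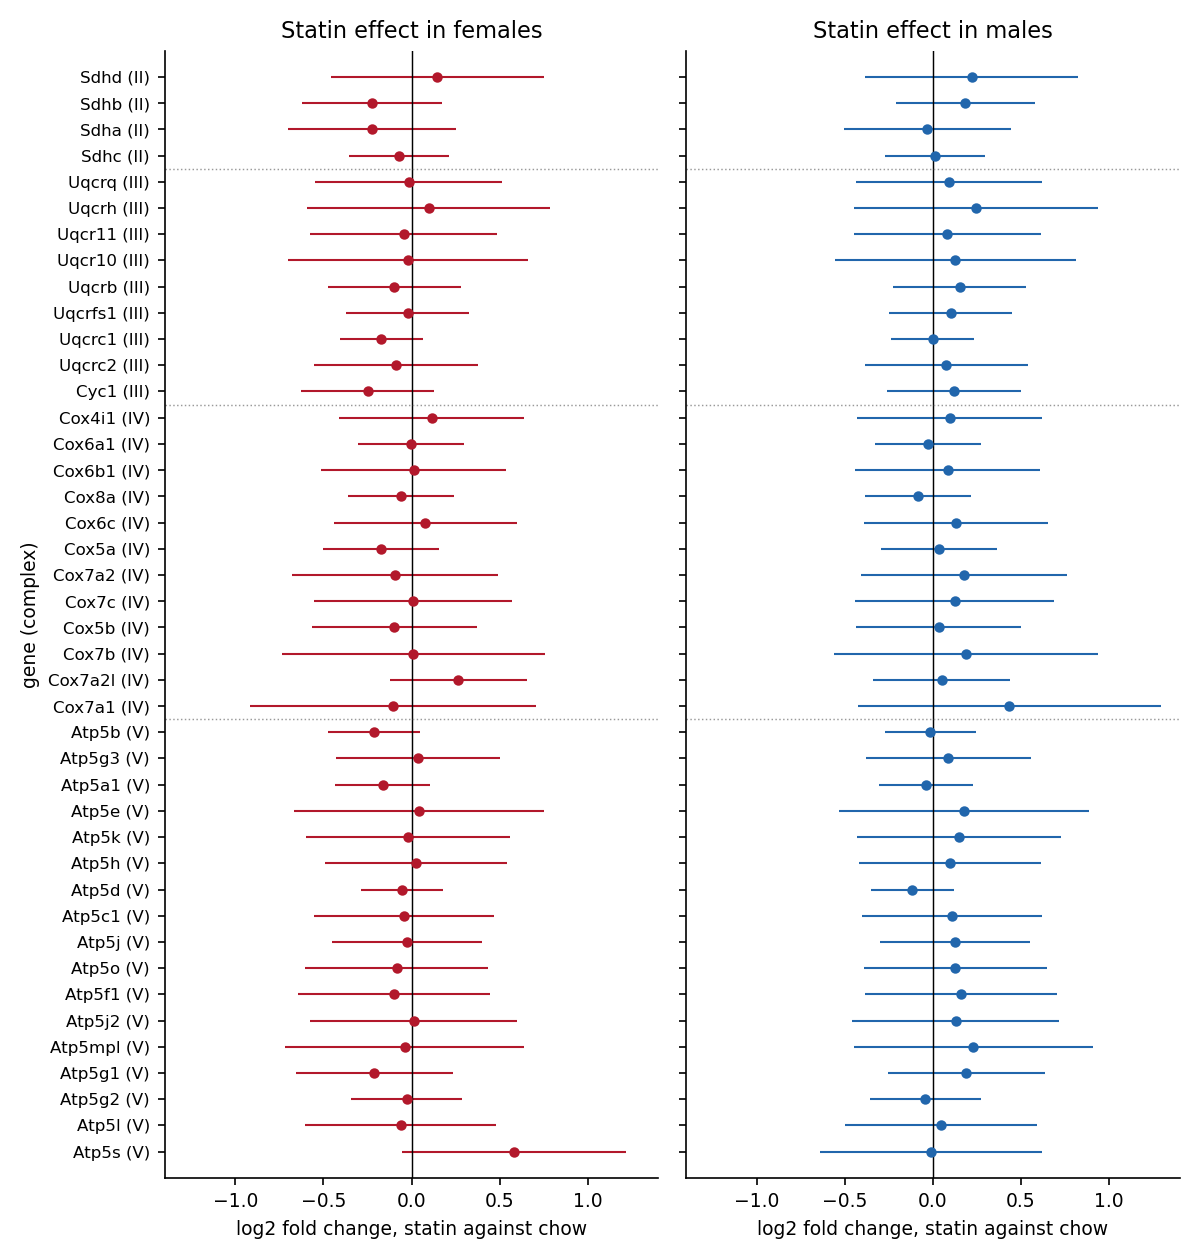
Log2 fold change of each of the 42 subunit genes with statin against chow (points) with its 95% interval (lines), in females (left) and males (right), 3 livers in each group, ordered by complex and by level per kb. Every interval crosses 0, and the intervals of Cox7a1 and Atp5s are among the widest.

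The direction of the statin differences was mixed between the sexes. In females 13 of 42 genes had a positive log2 fold change (52.8% of all genes) and in males 33 did (51% of all genes). The split was similar for the nuclear complex I genes (31.6% in females and 78.9% in males) and the cytosolic ribosomal protein genes (28.2% and 87.1%). Other lists were mostly positive in both sexes. These were the mitochondrial ribosomal protein genes (44 of 77 in females and 65 of 77 in males) and the assembly factors of complexes II to V (26 of 36 in each sex). Of the 42 genes, 21 were negative in females and positive in males, 12 were positive in both, 8 were negative in both, and Atp5s was positive in females and close to 0 in males (-0.01). The difference between the effects (female minus male) had a median of -0.13, and 0 of 42 genes passed at an adjusted (0% of all genes) or an unadjusted p-value under 0.05 (8.01% of all genes). DESeq2 gave 0 calls for the difference, adjusted (1.02% of all genes) or not (9.02% of all genes). The smallest p-value was that of Sdhb, with a difference of -0.41 ± 0.26 (log2, SE; 95% interval -0.96 to 0.15; unadjusted p = 0.138 and adjusted p = 0.813 by edgeR).

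In complex II, the median log2 fold change was -0.15 in females and 0.10 in males. Sdhb had 212, 234 and 276 CPM in females on chow and 253, 165 and 200.3 CPM in statin-treated females, a log2 fold change of -0.22 ± 0.18 (SE; 95% interval -0.62 to 0.17). It had 218, 204 and 199 CPM in males on chow and 188, 249.7 and 268 CPM in statin-treated males (0.18 ± 0.18, interval -0.21 to 0.58). In males the statin livers lay on either side of the chow livers, and in females the groups overlapped, with 1 statin liver inside the chow range and the others below it. Sdhd had 493, 229 and 336 CPM in statin-treated females and 217, 348 and 425 CPM in statin-treated males, a spread that took in all 6 chow livers (249 to 341 CPM). Sdha ran the other way, with 342, 554 and 382 CPM in statin-treated females and 601, 419 and 383 CPM in statin-treated males. The liver with the highest Sdhd in females thus had the lowest Sdha. Sdhc varied least in this complex, between 159.5 and 212 CPM over the 12 livers.

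In complex III, the medians were -0.04 in females and 0.10 in males. Uqcrc1, a core protein (GRCm38 chr9:108936633-108949623, plus strand), had 263, 252 and 293 CPM in females on chow and 247, 231 and 239.5 CPM in statin-treated females, with a log2 fold change of -0.17 ± 0.11 (SE; 95% interval -0.41 to 0.06; unadjusted p = 0.140, adjusted p = 0.678 by edgeR). All 3 statin-treated females lay below all 3 females on chow. In males Uqcrc1 had 261, 255 and 272 CPM on chow and 264, 262 and 262 CPM with statin. Cyc1 had 226, 247 and 266 CPM in females on chow and 266, 165 and 191 CPM with statin (-0.25 ± 0.17, interval -0.63 to 0.13), and the groups overlapped. It had 228, 201 and 201 CPM in males on chow and 197, 230.0 and 257 CPM with statin (0.12 ± 0.17). The small subunit Uqcrh, which lies beside cytochrome c1, had the widest spread, 283, 126 and 219 CPM in statin-treated females and 120.1, 220.5 and 274 CPM in statin-treated males. The other small subunits Uqcrb, Uqcrq, Uqcr10 and Uqcr11 and the Rieske protein Uqcrfs1 had log2 fold changes between -0.10 and -0.02 in females and between 0.08 and 0.15 in males. The second core protein, Uqcrc2, had -0.09 in females and 0.08 in males.

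In complex IV, the medians were 0.003 in females and 0.09 in males. Cox4i1 had 339, 449 and 421 CPM in females on chow and 538, 306 and 465 CPM in statin-treated females (log2 fold change 0.11 ± 0.24, interval -0.41 to 0.64). In males it had 451, 379.5 and 345 CPM on chow and 292, 435 and 529.7 CPM with statin (0.10 ± 0.24). Again the statin groups held both the lowest and the highest liver. Cox5a, a subunit of the matrix side, had -0.18 ± 0.15 in females, from 178, 179 and 198 CPM on chow to 198, 143 and 151 CPM with statin, and 0.03 ± 0.15 in males. Cox7a2l, a relative of subunit 7a, had the smallest p-value of the complex in females. It had 63.0, 75.4 and 75.8 CPM on chow and 98.2, 69.2 and 89.8 CPM with statin (0.26 ± 0.18, interval -0.12 to 0.65; unadjusted p = 0.165, adjusted p = 0.712 by edgeR). Cox7a1 had -0.11 ± 0.37 in females and 0.43 ± 0.39 in males (interval -0.43 to 1.29). The remaining genes Cox5b, Cox6a1, Cox6b1, Cox6c, Cox7a2, Cox7b, Cox7c and Cox8a lay between -0.10 and 0.08 in females and between -0.09 and 0.19 in males.

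In complex V, the medians were -0.04 in females and 0.11 in males. Atp5b (GRCm38 chr10:128083273-128090391, plus strand) had 1467, 1436 and 1571 CPM in females on chow and 1408, 1242 and 1211 CPM in statin-treated females, and the groups did not overlap. The log2 fold change was -0.21 ± 0.12 (SE; 95% interval -0.47 to 0.05; unadjusted p = 0.099, adjusted p = 0.608 by edgeR). In males the beta subunit had 1262, 1225 and 1293 CPM on chow and 1247, 1281 and 1213 CPM with statin (-0.01 ± 0.12), and the female minus male difference was -0.20 ± 0.17 (95% interval -0.57 to 0.17). Its partner in the catalytic ring, the alpha subunit Atp5a1, had 1225, 1044 and 1268 CPM in females on chow and 1062, 1065 and 1031 CPM with statin (-0.16 ± 0.12), with overlap. Atp5d, the delta subunit of the central stalk, had 248, 249 and 266 CPM in males on chow and 232, 229 and 243 CPM with statin, which did not overlap (-0.12 ± 0.11, interval -0.35 to 0.12). Atp5b and Uqcrc1 were the 2 of 42 genes whose female groups did not overlap, both lower with statin, where 12% of all genes had groups that did not overlap. In males Atp5d was the 1 of 42, where 7.95% of all genes did not overlap. The largest log2 fold change in females was that of Atp5s (0.58 ± 0.29, interval -0.05 to 1.22), which had 3.19, 2.71 and 3.34 CPM on chow and 3.97, 2.91 and 6.97 CPM with statin. That value rests on female statin 3, since the other 2 statin-treated females had 3.97 and 2.91 CPM. The stalk, membrane and coupling subunits Atp5c1, Atp5e, Atp5f1, Atp5g2, Atp5g3, Atp5h, Atp5j, Atp5j2, Atp5k, Atp5l, Atp5mpl and Atp5o lay between -0.10 and 0.04 in females and between -0.04 and 0.23 in males. Atp5g1 had -0.21 in females and 0.19 in males.

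**Figure D2:**
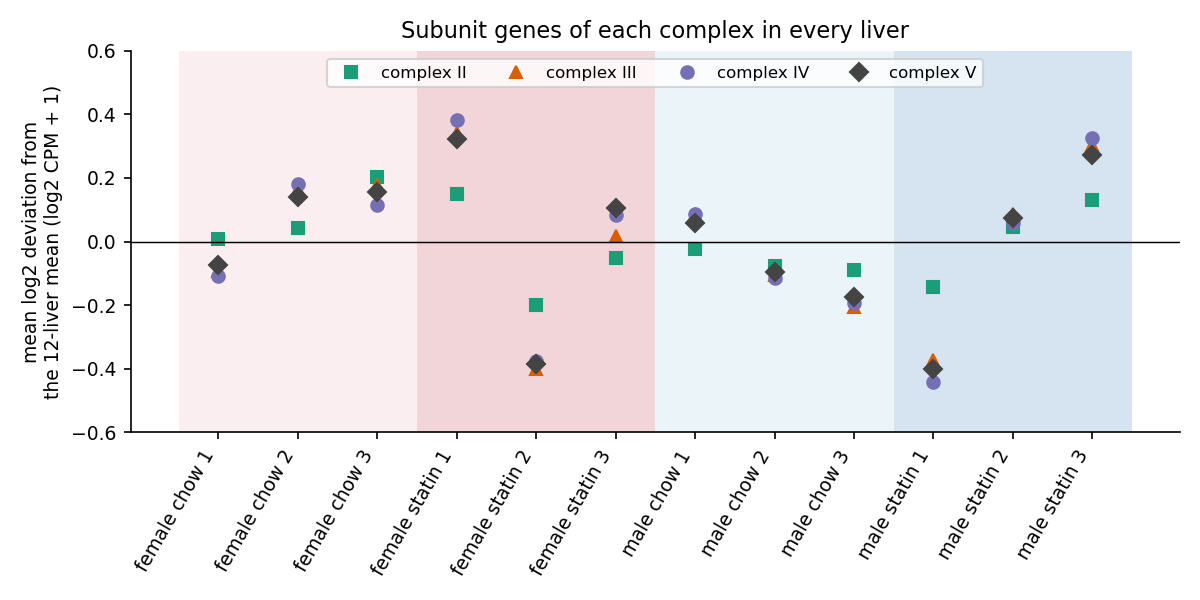
Mean deviation of the subunit genes of each complex from their 12-liver mean (log2 of CPM + 1), for every liver, with the 4 groups shaded. Complexes III, IV and V have the same sign in every liver and their lowest and highest livers lie in the statin groups. Complex II has the opposite sign in female chow 1, female statin 3 and male chow 1 and is highest in female chow 3.

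The subunit genes moved together from liver to liver within the groups. The mean log2 deviation of the 42 genes from their 12-liver mean was 0.33, -0.37 and 0.06 in statin-treated females and -0.38, 0.07 and 0.28 in statin-treated males. It was -0.08, 0.15 and 0.15 in females on chow and 0.07, -0.10 and -0.18 in males on chow. The statin groups thus held the 2 lowest and the 2 highest livers, and their means differed from those of chow by -0.07 in females and 0.06 in males. Of the 42 genes, 40 were higher in female statin 1 than in female statin 2, with a median ratio of 1.76, and 38 were higher in male statin 3 than in male statin 1, with a median ratio of 1.69. Female statin 2 or male statin 1 held the lowest of the 12 values for 16 and 21 genes, and female statin 1 or male statin 3 held the highest for 24 and 10 genes. Cox6b1, a small subunit on the intermembrane side, followed the others most closely. It had 272, 144 and 209.7 CPM in statin-treated females, 144, 213 and 258 CPM in statin-treated males, 179, 224 and 218 CPM in females on chow and 218, 187 and 174 CPM in males on chow.

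The median correlation between pairs of the 42 genes was 0.94, taken on deviations from the group means over the 12 livers. Of the 42 genes, 36 (85.7%) had a correlation over 0.8 with the mean of the others, whereas 18.8% of the 7601 other genes whose mean reached 10 CPM had one with the mean of the 42. A further 24.2% of these 7601 genes had a correlation below -0.8 with it. Other short transcripts moved together too, with a median pair correlation of 0.72 among the 597 of these genes with transcripts under 1000 bases. Nuclear complex I and ribosomal protein genes were not excluded from the 597. The cytosolic ribosomal protein genes had mean deviations of 0.33, -0.26 and 0.06 in statin-treated females and -0.44, -0.01 and 0.35 in statin-treated males. The genes differed in how far they moved for a given move of the rest. Cox7b changed by 1.98 on the log2 scale for each unit of change of the mean of the others, Atp5e, the epsilon subunit, by 1.86, Uqcrh by 1.82 and Sdhd by 1.52. Atp5d (0.06), Uqcrc1 (0.06), Atp5b (0.09) and Atp5a1 (-0.15) hardly moved with the rest, and Sdha moved against it (-1.01, correlation -0.96). The order of the genes within a complex therefore changed between livers. Sdhd had 493 CPM and Sdha 342 CPM in female statin 1, and Sdhd had 229 CPM and Sdha 554 CPM in female statin 2.

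**Figure D3:**
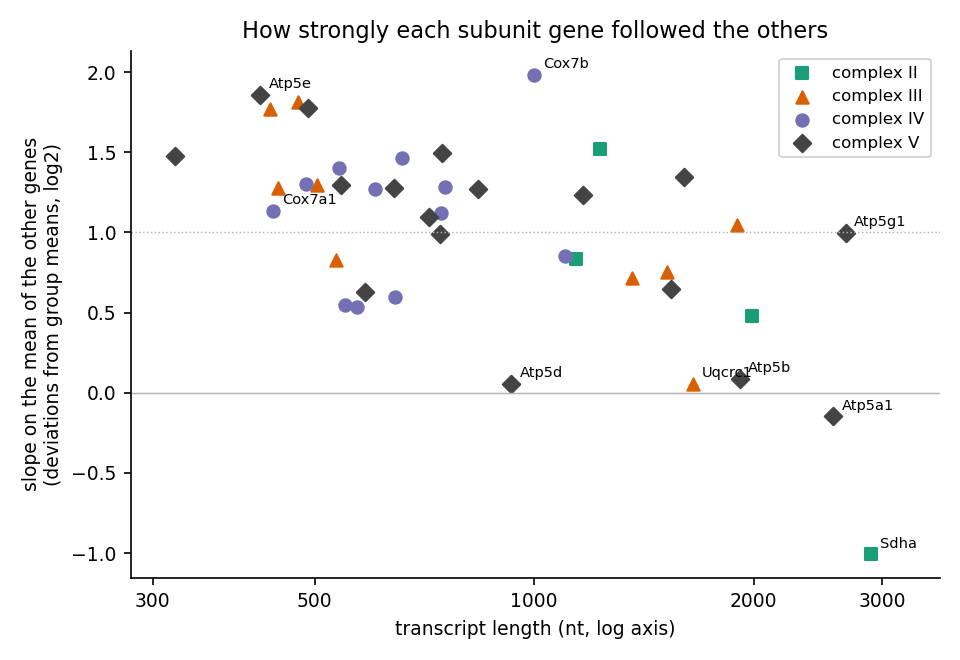
Slope of each subunit gene on the mean of the other genes (log2 deviations from group means, 12 livers; 1, dotted, means moving equally and 0 means no movement) against its transcript length on a log axis. Sdha, the longest, lies at -1.01, and Atp5a1, Atp5b, Uqcrc1 and Atp5d lie near 0.

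Transcript length moved with this pattern. The subunit genes are short, with a median transcript of 743.5 bases compared with 2651 for all genes tested, and 40 of 42 are below that median. Across the 42 genes the slope on the mean of the others had a Spearman correlation of -0.55 with transcript length and -0.18 with the GC content of the transcript, a description over genes that share the same 12 libraries. In each liver the deviation of 7594 other genes was also fitted against the log2 of transcript length. This slope was -0.17 per doubling of length in female statin 1 and -0.13 in male statin 3, where the subunit genes were high, and 0.16 in female statin 2 and 0.17 in male statin 1, where they were low. Over the 12 livers the mean deviation of the 42 genes and this length slope had a Pearson's r of -0.98 (permutation p = 1.0e-05, the smallest that 100000 permutations can give; adjusted p = 1.3e-05 over 4 relations) and a Spearman's rho of -0.92 (permutation p = 1.4e-04, adjusted p = 2.1e-04). Without the 2 livers farthest from the median slope, r was -0.96, and on deviations from the group means it was -0.99.

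**Figure D4:**
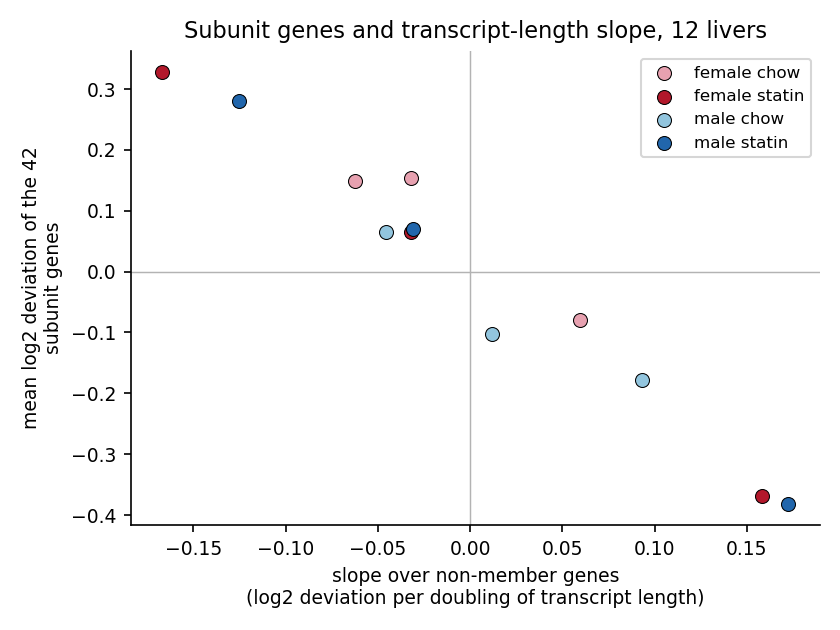
Mean log2 deviation of the 42 subunit genes in each liver against the slope of other genes on transcript length, coloured by group. Livers with negative slopes, in which short transcripts were relatively high, have high subunit genes, with female statin 1 and male statin 3 at the upper left and female statin 2 and male statin 1 at the lower right.

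The other 3 relations were of the same kind. The mean deviation of the 42 genes had an r of 0.99 with that of 38 nuclear complex I genes (permutation p = 1.0e-05, adjusted p = 1.3e-05; rho 0.96, permutation p = 2.0e-05, adjusted p = 8.0e-05; r = 0.99 without the 2 farthest livers). With 597 other genes of transcripts under 1000 bases, r was 0.96 (permutation p = 1.0e-05, adjusted p = 1.3e-05; rho 0.90, permutation p = 1.6e-04, adjusted p = 2.1e-04; r = 0.92 without the 2 farthest livers). The complex I genes were not excluded from these 597, so this relation and the one with complex I are not separate. With the slope on GC content, r was -0.79 (permutation p = 0.00249, adjusted p = 0.00249; rho -0.80, permutation p = 0.00302, adjusted p = 0.00302; r = -0.79 without the 2 farthest livers). Removing the length trend from each liver, fitted on the other genes, lowered the median pair correlation of the 42 genes from 0.94 to 0.48 and the pooled SD of their mean deviation within groups from 0.26 to 0.07. After this removal the statin median over the 42 genes was -0.08 (females) and 0.03 (males), and the count of genes at an adjusted p-value under 0.05 stayed 0 in both. On chow, the mean deviation of the 42 genes was then 0.05, 0.05 and 0.11 in females and -0.02, -0.08 and -0.06 in males. The sexes on chow overlapped in this mean before the removal and did not overlap after it, a difference that was not tested.

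The statin medians depended on single livers. In females the median over the 42 genes was -0.20 without female statin 1 and 0.13 without female statin 2. In males it was 0.30 without male statin 1 and -0.07 without male statin 3. The female minus male difference was -0.34 without female statin 1 and 0.07 without male statin 3. No liver was set aside, and each of these values is from the same fit with that liver left out.

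Other mitochondrial gene groups were compared in the same fit. Of the 38 nuclear complex I genes, 0 passed at an adjusted p-value under 0.05 in either sex, with medians of -0.09 in females and 0.08 in males. Of 36 assembly factors of complexes II to V tested, 0 passed at an adjusted p-value in either sex (median 0.15 in females and 0.07 in males). In females 4 were higher and 0 lower at an unadjusted p-value under 0.05, a share near the 10.5% of all genes that passed in either direction. These were Sdhaf1, a factor for the iron-sulfur centres of complex II (0.69), Coa7 (0.34), Uqcc1 (0.32) and Cmc2 (0.29), with adjusted p-values of 0.327, 0.312, 0.467 and 0.421 by edgeR. Of 12 regulators of mitochondrial biogenesis, 0 passed at an adjusted p-value in either sex. Tfam, which packages mitochondrial DNA and helps to start its transcription, had 38.3, 42.5 and 41.0 CPM in females on chow and 59.8, 45.4 and 51.6 CPM with statin (log2 fold change 0.36, adjusted p = 0.312), and the coactivator Ppargc1b had -0.54 (adjusted p = 0.432). Of 13 TCA cycle genes, 0 passed with statin in either sex, with medians of 0.004 in females and -0.04 in males. At an unadjusted p-value under 0.05, 2 of the 13 were lower and 0 higher in females, Cs, citrate synthase (-0.56), and the malate dehydrogenase Mdh2 (-0.29), with adjusted p-values of 0.427 and 0.342 by edgeR. Cycs, cytochrome c, which carries electrons from complex III to complex IV, had -0.35 in females and 0.28 in males, with a difference between the sexes of -0.64 (unadjusted p = 0.044, adjusted p = 0.606 by edgeR).

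Partners encoded by mitochondrial DNA were read through mt-Cytb of complex III and mt-Co1 of complex IV. mt-Co1 had between 17739 and 25103 CPM and mt-Cytb between 6954 and 10434 CPM over the 12 livers. For mt-Cytb the statin log2 fold changes were 0.13 (females) and 0.10 (males), and for mt-Co1 0.09 (females) and 0.18 (males), all with unadjusted p-values of at least 0.292 by edgeR. mt-Co2, mt-Co3 and mt-Atp6 had at most 4.15 CPM in any liver although they are cut from the same transcript, and they were not used as levels. mt-Atp8 did not pass the filter.

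On chow, the sexes differed in few subunit genes. By edgeR's adjusted p-value 1 of the 42 genes was higher and 0 were lower in females, compared with calls for 10.4% of all genes, and 2 were higher by the unadjusted p-value, compared with 24.9% of all genes. The called gene was Cox7a1 (GRCm38 chr7:30184144-30186078, plus strand), which had 2.73, 3.51 and 2.77 CPM in females on chow (3.00 ± 0.44, SD, n = 3) and 1.48, 0.812 and 0.976 CPM in males on chow (1.09 ± 0.35, SD, n = 3). The groups did not overlap, and the log2 fold change was 1.47 ± 0.39 (SE; 95% interval 0.62 to 2.32; adjusted p = 0.0325 by edgeR). On statin there were 4.29, 1.88 and 2.21 CPM in females and 0.759, 1.74 and 1.89 CPM in males. The sexes overlapped only between 1.88 and 1.89 CPM, and their difference on statin was not tested. The level was low, and the call was lost when any of the 3 females on chow or replicate 2 or 3 of the males on chow was left out (adjusted p between 0.069 and 0.116 by edgeR), while the log2 fold change was between 1.29 and 1.52 in these 5 fits. Each of the 5 muscle markers was below the filter in these livers. The sums of 3 marker lists did not overlap between the sexes on chow. Stellate cell markers summed to between 305 and 365 CPM in females and between 190 and 217 CPM in males, and 2 of the 6 passed between the sexes at an adjusted p-value under 0.05. Endothelial markers summed to between 224 and 238 CPM in females and between 151 and 202 CPM in males (1 of 5 passed), and Kupffer cell markers to between 575 and 714 CPM and between 316 and 509 CPM (3 of 8 passed). The cholangiocyte, lymphocyte and neutrophil sums overlapped, with 0 markers passing. Of all genes, 37.7% did not overlap between the sexes on chow. The part of these cells in the differences of Cox7a1 and Atp5g1 was not tested. Atp5g1 (chr11:96068852-96075670, minus strand) was the second gene, with 191, 213 and 216 CPM in females on chow (207 ± 13.9, SD, n = 3) and 149.7, 127 and 137 CPM in males on chow (138 ± 11.6, SD, n = 3), a log2 fold change of 0.58 ± 0.21 (95% interval 0.14 to 1.03; adjusted p = 0.093 by edgeR). With DESeq2 Cox7a1 (1.47), Atp5g1 (0.59) and Atp5b (0.25) were called, with adjusted p-values of 0.003, 0.043 and 0.039, where 16.3% of all genes were called. Over the 42 genes the median log2 fold change of females against males on chow was 0.13, compared with -0.009 over all genes, and 37 of 42 were positive (48.9% of all genes). The cytosolic ribosomal protein genes (79 of 85 positive) and the nuclear complex I genes (28 of 38 positive) were mostly positive as well. The mitochondrial ribosomal protein genes (30 of 77 positive) and the assembly factors of complexes II to V (12 of 36 positive) were mostly negative. Without replicate 3 of the males on chow the median over the 42 genes was 0.08, and without replicate 1 of the females on chow it was 0.21.

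**Figure D5:**
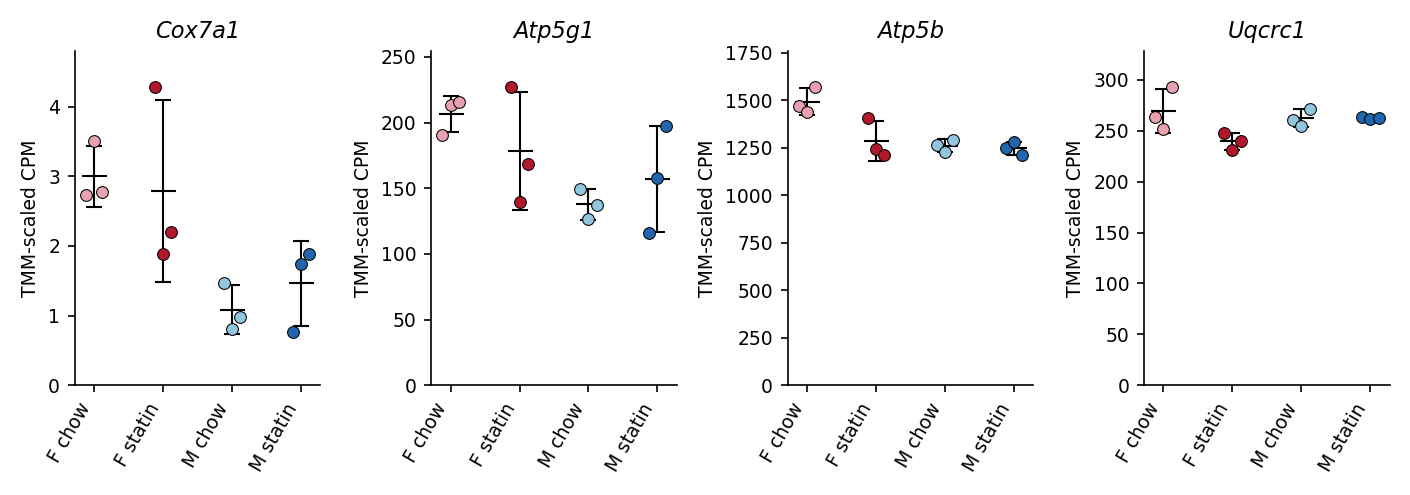
Levels of Cox7a1, Atp5g1, Atp5b and Uqcrc1 in the 12 livers (F, female; M, male), as TMM-scaled CPM, with the mean and SD of 3 livers in black. Cox7a1 and Atp5g1 are higher in all 3 females on chow than in all 3 males on chow, and for Atp5b and Uqcrc1 the 3 statin-treated females lie below the 3 females on chow.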

How the data were processed

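Liver RNA of 12 mice was sequenced from poly(A)-selected, strand-specific libraries with paired reads of 50 bases. The submitters' processing notes name STAR 2.4.1a, HTSeq and edgeR 3.28.1, and the build GRCm38. The strand setting of the counting was not given in the sources used here. The authors deposited CPM values for 48526 genes, and a table of 11968 genes described as normalized, whose values are raw counts: multiplying each CPM value by its liver's total gave whole reads for 100% of values (tolerance 0.01), and 0 of these reads differed from the table. The members and gene lists were chosen with earlier results of these data known.

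The counts were fitted with edgeR 4.0.16 (quasi-likelihood, TMM, common dispersion 0.0380, prior degrees of freedom 4.14) on all 12 livers in 4 groups without covariates, and tested two-sided. Standard errors were derived from the F statistic as the log2 fold change, without its sign, over the root of F, and 95% intervals use the t distribution. Depth was between 46066381 and 60419223 counts per liver. Slopes and deviations use log2(CPM + 1). The named genes were, by a written rule, the adjusted calls, the 2 genes with the smallest p in each complex and sex, core subunits, and genes with tissue-specific forms. Cox6b1, Cox7b, Atp5e, Uqcrh and Sdhd, as genes that followed the others, were singled out after their values were seen, as were the genes named in the other lists. R 4.3.3, limma 3.58.1, DESeq2 1.42.0 and GENCODE vM21 annotation were used. The fits were tested on simulated data. The alternatives were DESeq2 and its size factors, scaling by library size only, other filters on low counts (none, or at least 10 CPM in 6 livers), each sex alone, the replicate number as a block, removal of a transcript length trend, and leaving out each liver. Removal of length and GC trends was added after seeing the data.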

Additional observations from a re-analysis of the deposited data

How the results depend on the processing

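For statin, 0 of the 42 genes passed at an adjusted p-value under 0.05 under every alternative run, in females (0% to 2.26% of all genes), in males (0% to 0.0334%) and for the difference between the sexes (0% to 1.02%). At an unadjusted p-value under 0.05 the count in females was 2 with DESeq2 (12% of all genes), 1 without the filter (6.81%), 1 after removing the length trend (12.7%) and 1 after removing length and GC trends (13.9%), and between 0 and 2 with a liver left out (6.68% to 15.4%). For the difference between the sexes it was 2 after removing the length trend (9.93%) and 1 after removing length and GC trends (10.5%), and between 0 and 3 with a liver left out (5.8% to 12%). For the sexes on chow, the count at an adjusted p-value under 0.05 was 3 with DESeq2 (16.3%), 0 with the stricter filter of at least 10 CPM in 6 livers (10.1%), which leaves Cox7a1 out of the test, and between 0 and 1 with a liver left out (5.31% to 13.3%). The unadjusted count was between 1 and 3 with a liver left out (19.5% to 28%). Same-numbered livers are different mice, and the deviations from the group means correlated over 0.1 in 1 of the 6 same-numbered chow and statin pairs within a sex (range -0.56 to 0.15), with 3 of 12 livers closest to their own number, so the numbers were not taken to pair the livers. With the replicate block 901 genes (7.53%) were called between the sexes on chow (1250 without it), with 0 of the 42 among them and Cox7a1 at 1.49 with an adjusted p of 0.0629 (0.00282 to 0.116 over its alternatives), and no other count of calls over the 42 changed. With a liver left out, the male log2 fold changes lay between -0.00415 and 0.448 for Sdhd, -0.0243 and 0.514 for Uqcrh, -0.0838 and 0.411 for Cox7a2 and -0.00829 and 0.367 for Atp5g1, each lowest without male statin 3 and highest without male statin 1. Apart from the stricter filter, the causes were not tested. The fit of each sex alone gives no comparison between the sexes. With 3 livers a group and intervals of about 0.51 on either side of the estimate, smaller changes of most genes could not be detected. What depth adds to this limit was not tested.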
